A study of Mus musculus with 9 samples.

Results

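In mouse B cells responding to lipopolysaccharide (LPS), most changes in DNA methylation were losses, and a small set of CpGs stood higher in both LPS stages than in naive B cells. These CpGs are described here. A CpG entered the set when all 9 libraries covered it with 10 reads or more and when its pooled methylation level, the methylated reads of a group's 3 libraries as a percentage of all their reads, was at least 15 percentage points higher in plasmablasts than in naive B and at least 15 points higher in plasma cells than in naive B. The rule found 238 CpGs, called members below, of 356320 tested CpGs (0.0668%), out of 911004 CpGs in the deposited table. Reading depth limits what membership shows. At CpGs simulated at this depth without a difference between groups, counting error alone carried a number similar to that of the members past both limits. Each CpG was simulated at its level pooled over all 9 libraries, and a difference was added at a small part of the CpGs. The simulated and real numbers are therefore not directly comparable. Tested CpGs on the whole stood lower in the LPS stages, which the simulation did not include.

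Members were selected on their measured levels in these groups. The 3 cell kinds were sorted from the spleen of C57Bl/6J females 10 weeks of age and compared with 3 libraries each. Plasmablasts were sorted as B220mid CD138+ cells on day 3 after LPS. Plasma cells of the same day were B220low CD138+, and naive B cells (B220+ CD43-) came from mice that had received none. Whether the 3 libraries of a group stem from separate animals is not stated in the labels; p-values therefore rest on counting error and on the spread between these libraries, part of which may be technical, and for the calls at single CpGs that spread was nearly 1 shared value. Methylation was read by reduced representation bisulfite sequencing, which cuts DNA at MspI sites and therefore samples CpG-rich stretches, and positions are on mouse build mm9.

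DNA methylation in mammals sits mostly on the cytosine of CpG pairs. It is written by the DNMT3 enzymes, copied at replication by DNMT1, and lost either through TET enzymes or by dilution over divisions. LPS acts on B cells through TLR4 and drives them to divide and to become plasmablasts, which cycle and secrete antibody, and then plasma cells. Bisulfite reads methylcytosine and hydroxymethylcytosine alike. A level is an average over sorted cells, so a change within cells and a change in which cells were sorted cannot be told apart, and no expression values were used here to check the sorted cells against their markers.

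The promoters of Rbmxl2 and Pomc are shown because every deposited CpG in the window could be placed on a CG there, so the member can be seen among its neighbours. Both windows run from 250 bases before to 50 after the gene start on the plus strand of RefSeq build GRCm38.p6, chr7:107209195-107209494 for Rbmxl2 and chr12:3954695-3954994 for Pomc, and the capitals mark the member CG. All 6 deposited CpGs in each window fell on a CG, out of 29 CG in the Rbmxl2 window and 18 in the Pomc window. Positions were placed by their mm9 distance to the gene start and by the small shift that put most of them on a CG. That shift was 0 bp for Rbmxl2 and 6 bp for Pomc. The fall on a CG was thus how the positions were placed and is no check of the placement. Distances to the start given below are those in mm9.
Rbmxl2: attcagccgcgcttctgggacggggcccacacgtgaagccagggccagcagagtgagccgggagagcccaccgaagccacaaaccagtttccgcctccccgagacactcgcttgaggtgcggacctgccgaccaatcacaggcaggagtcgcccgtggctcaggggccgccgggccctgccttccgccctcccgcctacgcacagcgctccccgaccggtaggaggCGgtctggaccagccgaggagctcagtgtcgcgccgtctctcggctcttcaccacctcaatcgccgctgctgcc
Pomc: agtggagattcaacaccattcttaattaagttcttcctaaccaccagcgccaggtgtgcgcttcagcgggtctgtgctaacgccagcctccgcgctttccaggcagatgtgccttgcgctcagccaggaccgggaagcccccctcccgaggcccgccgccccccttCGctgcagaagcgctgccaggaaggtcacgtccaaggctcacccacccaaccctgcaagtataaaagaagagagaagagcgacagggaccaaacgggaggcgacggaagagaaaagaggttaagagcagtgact

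The member in the promoter of Rbmxl2, a retrogene of an RNA-binding protein used in male germ cells, lay 23 bp upstream of the start at chr7:114352935 in mm9. It read 57.1, 60 and 65% in plasmablasts, 63.3, 78.3 and 46.9% in plasma cells, and 35.3, 54.5 and 42.1% in naive B. Pooled, it differed from naive B by 16.1 points in plasmablasts and 17 points in plasma cells. All plasmablast libraries lay above all naive B libraries, while plasma cell 3 overlapped naive B. The CpG 10 bp further upstream was pooled at 55.2% in plasmablasts, 40.2% in plasma cells and 33.3% in naive B, and the CpG 9 bp downstream of the start at 67.9% in plasmablasts, 70.2% in plasma cells and 68.6% in naive B. Differences between CpGs of this promoter were not tested.

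Pomc encodes the precursor of adrenocorticotropic hormone and endorphin. Its member, 89 bp upstream at chr12:3954861 in mm9, read 34.8, 45.5 and 37.5% in plasmablasts, 36.7, 9.09 and 33.3% in plasma cells, and 11.8, 13.8 and 14.3% in naive B. All 3 plasmablast libraries stood above all naive B libraries, while 1 plasma cell library lay below them. Of the neighbours on the same stretch, the CpG 99 bp upstream was pooled at 14.8% in plasmablasts, 32.4% in plasma cells and 19.1% in naive B, and the CpG 109 bp upstream at 9.84% in plasmablasts, 28.4% in plasma cells and 26.5% in naive B.

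Over all members the mean level was 49.5 ± 2.56% in plasmablasts, 49.7 ± 2.26% in plasma cells and 26.2 ± 1.36% in naive B (SD, n = 3 libraries each). Across all tested CpGs the same means were 54.8% in plasmablasts, 49.8% in plasma cells and 62.4% in naive B. The members thus stood well under the average CpG in naive B and near it in the LPS stages. Because the rule chose members by these differences, their size is a description and was not tested.

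**Figure D1:**
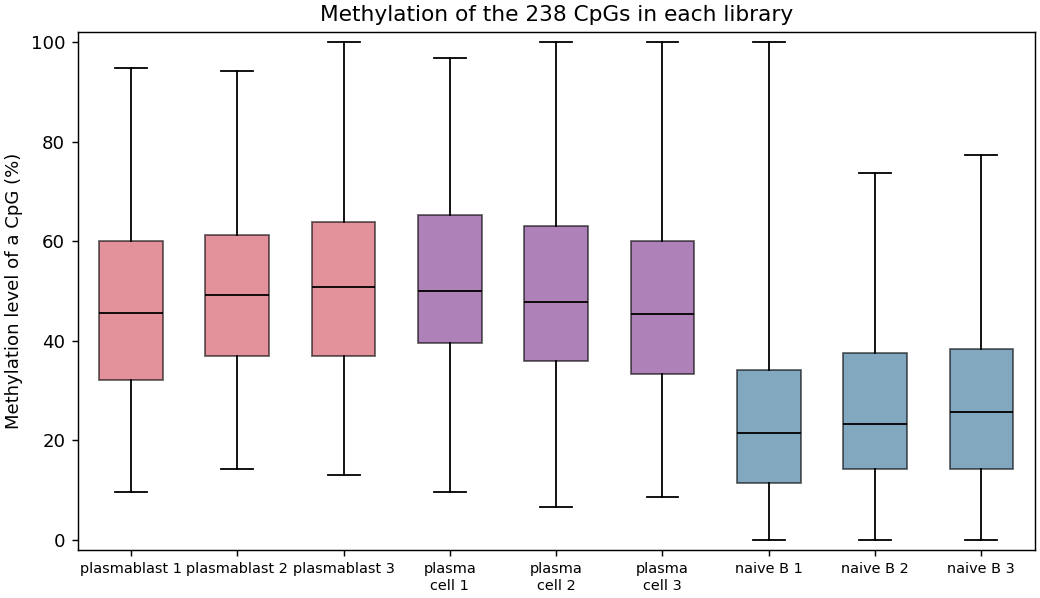
Methylation level (%, vertical axis) of the 238 CpGs in each of the 9 libraries; boxes span the quartiles with the median as a line, and whiskers reach the lowest and highest CpG. Library medians lie between 45.4% and 50.8% in the LPS stages and between 21.5% and 25.8% in naive B.

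The median gain of the members was 22.7 points in plasmablasts (15.0 to 47.7) and 22.4 points in plasma cells (15.1 to 51.7). All tested CpGs had a median difference of -5.88 points in plasmablasts and -9.62 points in plasma cells. Gains of 30 points or more were found at 40 members in plasmablasts and at 51 in plasma cells. Most members lay near the limit of the rule: the smaller of the 2 gains, called the smaller gain below, was under 20 points at 130 and 20 points or more at 108. Among the members just inside, those near Srebf1 and C130050O18Rik had smaller gains of 15.05 and 15.07 points. Just outside stood CpGs near Zdhhc8 and Erf, both with 14.99 points, and one without a gene symbol with 14.97 points.

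Of the 356320 tested CpGs, 1723 (0.484%) were higher by 15 points or more in plasmablasts and 495 (0.139%) in plasma cells. The members made up 13.8% of the first and 48.1% of the second. Both gains were measured against the same naive B libraries, so a low reading there raised both at once. In 192 of 238 members all 3 plasmablast libraries lay above all 3 naive B libraries, against 2.52% of tested CpGs. For plasma cells this held at 181 members, against 0.534%, and for all 6 LPS libraries together at 159, against 0.199%. These shares follow from the choice of members and nothing is read from them.

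A quasi-binomial test with Benjamini-Hochberg adjustment over all tested CpGs called 111 members higher in plasmablasts (0.112% of tested CpGs were called) and 128 higher in plasma cells (0.0544% of tested CpGs). At 83 members both calls were made and at 82 neither, without a share over all tested CpGs for comparison. Since the rule used the same differences, these counts describe the members and test nothing. Single libraries weighed on these counts: 50 members were called in plasmablasts without naive B 1, 54 without plasmablast 2, 63 without plasmablast 3 and 72 without naive B 2, and 79 in plasma cells without naive B 1. Limma on log2 ratios called 48 members in plasmablasts and 72 in plasma cells. The rule itself found 379 CpGs without naive B 2 and 362 without naive B 3. In the other direction the same test called 15.8% of tested CpGs lower in plasmablasts and 30.1% lower in plasma cells. The authors' deposited lists of differential CpGs held 11 members for plasmablasts, of 15 listed and tested CpGs that were higher there, and 47 members for plasma cells, of 57. These lists, which asked for a change of at least 0.2 as a fraction per the file headers and run mostly to losses, held 4.62% of members and 3.31% of tested CpGs for plasmablasts, and 19.7% of members and 15.3% of tested CpGs for plasma cells.

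**Figure D2:**
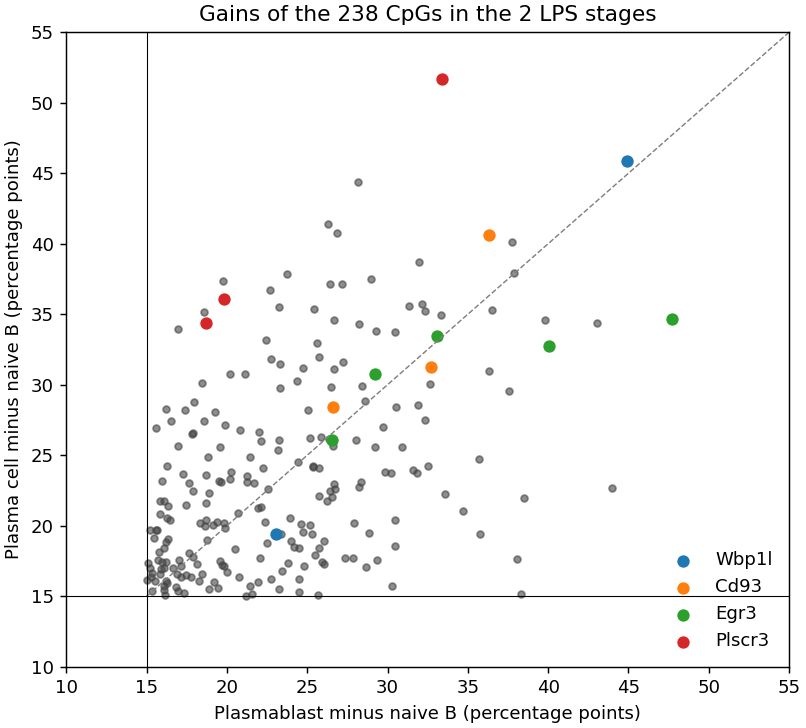
Gain of each of the 238 CpGs in plasmablasts (horizontal axis) and in plasma cells (vertical axis), both in percentage points over naive B; solid lines mark the limit of 15 points and the dashed line equal gains. Coloured points are the members of 4 named genes: the Plscr3 members lie above the dashed line, and the Egr3 members on both sides of it.

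Members differed little between the 2 LPS stages. The median difference between plasma cells and plasmablasts was 0.351 points, against -3.85 points over all tested CpGs, and 202 of 238 members differed by no more than 10 points. The widest differences were -23.2 and 18.3 points. No member was called in either direction by the quasi-binomial test (0.00112% of tested CpGs were called higher in plasma cells and 0.597% lower). At an unadjusted p under 0.05 in that test, 5 members were higher and 3 lower, against 0.389% and 17.7% of tested CpGs. On log2 ratios limma called no tested CpG in either direction. In that fit 0 members were higher and 1 lower at an unadjusted p under 0.05, and the shares over all tested CpGs are not reported here. Since the rule asked for a gain in both stages, it also favoured CpGs with similar levels in them.

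Libraries differed in the level read at nearly unmethylated CpGs. Over 78187 such CpGs it was 2.08 to 6.11% in plasmablasts, 1.07 to 1.16% in plasma cells, and 0.749, 3.13 and 2.63% in naive B 1, 2 and 3. Set against naive B 2 and 3, whose background was nearest to theirs, the plasmablasts had a median gain of 21.2 points, with all 238 members above 0 and 196 at 15 points or more. Plasma cells set against naive B 1 had a median gain of 24.3 points, with 235 members above 0 and 210 at 15 points or more. These narrower comparisons were chosen after seeing the data and reuse the libraries that chose the members, so they describe the members and test nothing. Adaptors of 2 kinds were used per the labels, and the labels do not assign them to libraries, so the part of library preparation in these values was not tested. Members were read as deeply as other CpGs, with library medians of 24 to 38 reads against 24 to 36 for all tested CpGs.

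CpGs that the rule could not use gave a reading it did not select on. These unscored CpGs had at least 5 reads in every library but fewer than 10 in at least 1, and 129 of them lay 51 to 500 bp from a member, beyond the 50 bases of a single read. They averaged 47.9 ± 2.05% in plasmablasts, 45.1 ± 2.79% in plasma cells and 43.1 ± 2.16% in naive B. The difference from naive B was 4.81 points in plasmablasts and 2.04 points in plasma cells (exact two-sided permutation tests of 3 against 3 libraries, p = 0.1 and p = 0.4, where 0.1 is the smallest p possible). The plasma cell difference was 0.443 points without plasma cell 1, 1.01 points without naive B 1 and 3.16 points without naive B 2. It was 5.604 points at the 59 of them nearest to a member, and with reads pooled over all 129 it was -2.63 points. All 192638 unscored CpGs differed by -7.18 points in plasmablasts and -12.1 points in plasma cells. Relative to that mean of each library, the neighbours were higher by 12 points in plasmablasts and 14.2 points in plasma cells (exact permutation p = 0.1 for both, with no overlap between groups). All unscored CpGs started higher, at 61.8% in naive B, and differences varied with that level. Tested CpGs at 0 to 10% had medians of 1.91 points in plasmablasts and -0.939 in plasma cells. At 90 to 100% these were -10.2 and -14.3 points. The part of the starting level in the relative differences was not tested.

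Among tested CpGs outside the set, the difference from naive B fell off with distance from a member. Within 10 bp of a member, 58 such CpGs were higher by 8.13 points in plasmablasts and 10.3 points in plasma cells, and they can share reads with the member. From 51 to 500 bp, 331 CpGs averaged 46.3 ± 1.54% in plasmablasts, 42.9 ± 2.29% in plasma cells and 46.5 ± 2.05% in naive B, with differences from naive B of -0.206 points in plasmablasts (exact permutation p = 0.9) and -3.63 points in plasma cells (exact permutation p = 0.2). CpGs that met the rule had been left out of these 331, which can only lower the differences. The 2 tests therefore cannot show that the surroundings of members lacked a gain. With reads pooled the plasmablast difference was 1.12 points, and it was 0.724 points without naive B 2 and 0.640 points without plasmablast 1. Between 2 and 10 kb the differences were -7.16 points in plasmablasts and -12 points in plasma cells, and over all tested CpGs outside the set -7.64 points in plasmablasts and -12.6 points in plasma cells. The neighbours also stood lower in naive B than the average CpG. Tested CpGs at 40 to 50% in naive B, members included, had median differences of -5.25 points in plasmablasts and -14.8 points in plasma cells. This bin is not matched to the neighbours, whose 46.5% is a mean over 331 CpGs and not the level of each. The part of the naive B level in these differences was not tested.

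**Figure D3:**
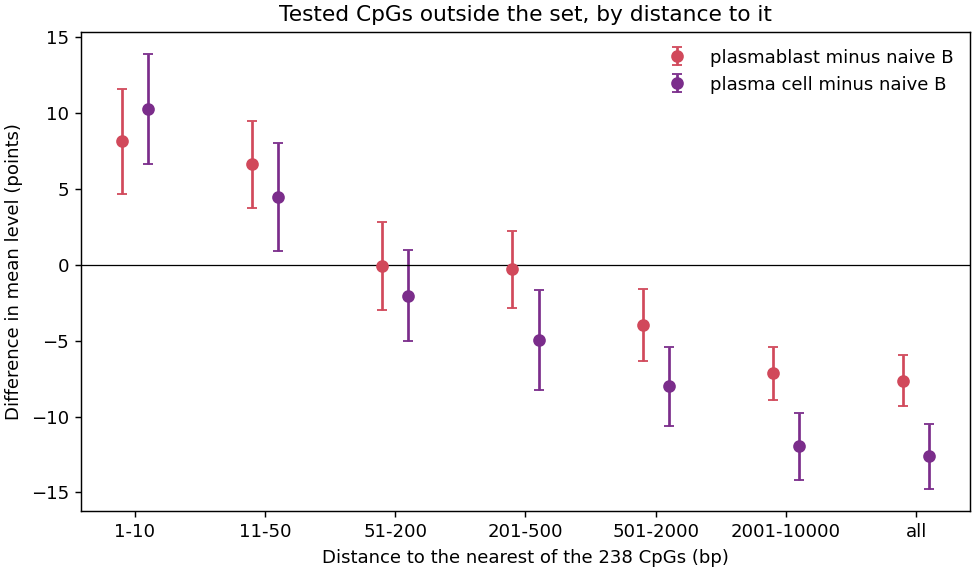
Mean difference from naive B (percentage points, vertical axis) of tested CpGs outside the set, by their distance in bp to the nearest of the 238 CpGs (horizontal axis) and for all of them; bars are the square root of the summed variances of both groups (SD, n = 3 libraries each). Differences are above 0 within 50 bp and are -7.64 points in plasmablasts and -12.6 points in plasma cells over all CpGs outside the set.

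Members lay mostly away from promoters. The deposited annotation placed 106 in introns (44.5%), 65 between genes (27.3%), 48 in exons (20.2%) and 19 in promoters (7.98%). Promoters, reaching from 2500 bp upstream to 500 bp downstream of a start, held 15.5% of all tested CpGs and 29.4% of the 161066 tested CpGs at 85% or less in naive B, the ones with room to gain 15 points. Within 1 kb of a gene start lay 22 members (9.24%), against 53.1% of the tested CpGs with room to gain. The median distance to a gene start in that larger set was 819 bp. Of its CpGs, 97674 stood below 10% in naive B, where members were rare (0.0276%). Shares at a matched naive B level are not reported here, so position and naive B level cannot be told apart. Of the members, 10 (4.2%) were in 3′ untranslated regions, against 1.51% of the CpGs with room to gain. Chromosome 11 held the most members, 29 (12.2%, against 8.44% of the CpGs with room to gain). Chromosome 14 held 15 (6.30%, against 3.47%), chromosome 16 also 15 (6.30%, against 2.75%) and chromosome 13 only 3 (1.26%, against 4.04%). The X chromosome held none among its 8043 tested CpGs. Members close together were counted singly, and the chromosome shares were not tested.

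In naive B most members were partly methylated. The pooled naive B level was 10 to 20% at 80 members and 20 to 30% at 49. It was below 10% at 27, although that bin held 97674 tested CpGs, and above 60% at 6. As a share of tested CpGs, members were most frequent at 20 to 30% (0.723%) and rare below 10% (0.0276%). In the bin from 20 to 30%, all tested CpGs had median differences of -1.09 points in plasmablasts and -8.33 points in plasma cells.

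**Figure D4:**
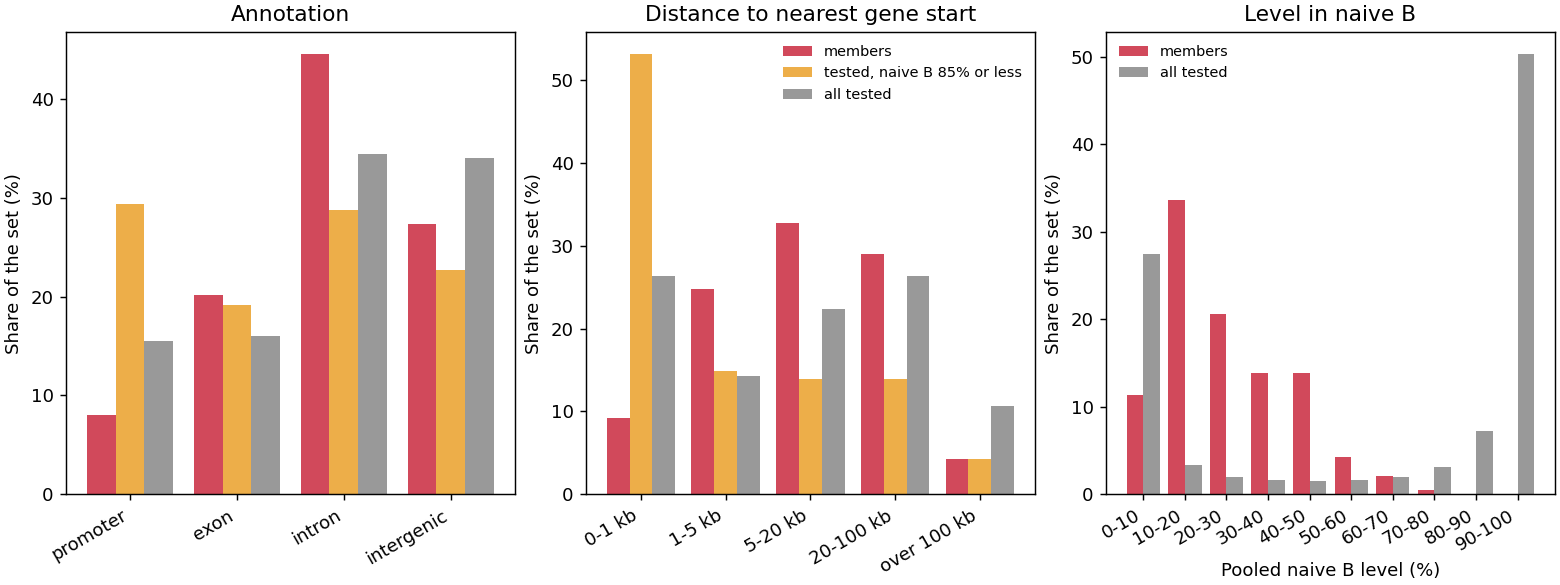
Share (%) of the 238 CpGs, of tested CpGs at 85% or less in naive B and of all tested CpGs, by annotation class (left), by distance to the nearest gene start (middle) and, without the second set, by pooled naive B level (right). Promoters hold 7.98% of the members, 29.4% of CpGs with room to gain and 15.5% of all tested CpGs.

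The 238 members fell into 180 stretches when CpGs at most 500 bp apart were joined. Of these, 135 were lone CpGs, 45 held at least 2 members and 9 at least 3; 94 members lay within 50 bp of another and can share reads. Members had 149 nearest gene symbols, and 29 had none. Of 145 genes with members and at least 5 other tested CpGs, the mean of those others was lower than in naive B at 136 in plasmablasts and at 140 in plasma cells. Losses were general, and only 26.6% of all tested CpGs stood above naive B in plasmablasts and 10.0% in plasma cells. The share over all genes is not reported here, leaving the members out lowers these means, and nothing is read from the counts.

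Egr3 held the largest stretch, with 5 members in 187 bp (chr14:70479532-70479718). EGR3 is a zinc finger transcription factor switched on at once by antigen receptor signals. All are annotated as exon, the last of them in the 3′ untranslated region. They averaged 52.5 ± 1.95% in plasmablasts, 47 ± 5.1% in plasma cells and 17.8 ± 6.06% in naive B (SD, n = 3, as for all means of members below), and no LPS library overlapped naive B in this mean. The last of them, at chr14:70479718, read 62.2, 63.8 and 57.5% in plasmablasts, 51.2, 43.1 and 52% in plasma cells, and 9.2, 38.9 and 8.33% in naive B. Naive B 2 stood apart from the other naive B libraries there. The 58 other tested CpGs assigned to Egr3 averaged 36.2 ± 1.08% in plasmablasts, 30.7 ± 2.66% in plasma cells and 44.4 ± 1.81% in naive B.

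Cd93, a C-type lectin-like surface protein needed for long-lived plasma cells to persist in bone marrow, held 3 members in 210 bp of exon (chr2:148267284-148267493). Their mean was 41 ± 6.55% in plasmablasts, 43.6 ± 4.28% in plasma cells and 9.63 ± 1.31% in naive B. The member at chr2:148267284 read 40, 60 and 44.8% in plasmablasts, 45.8, 55.6 and 59.1% in plasma cells, and 12, 11.1 and 16.7% in naive B. Every LPS library was above every naive B library at this CpG and in the mean of the 3 members. The 6 other tested CpGs of Cd93 averaged 34.7 ± 1.38% in plasmablasts, 30.2 ± 1.23% in plasma cells and 37 ± 3.07% in naive B. Within 600 bp of the centre of this stretch, 2 tested CpGs outside the set averaged higher in the LPS stages. They read 26.8 ± 5.93% in plasmablasts, 18.4 ± 7.21% in plasma cells and 9.62 ± 5.01% in naive B.

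Hif3a encodes an alpha subunit of the hypoxia-inducible factors and held 4 members in 154 bp of intron (chr7:17646232-17646385). They averaged 47.7 ± 7.56% in plasmablasts, 55.8 ± 6.32% in plasma cells and 24.6 ± 1.94% in naive B, with no overlap between either LPS stage and naive B. Within 600 bp of the centre of this stretch, 4 other tested CpGs averaged 50.4 ± 4.94% in plasmablasts, 47.7 ± 7.34% in plasma cells and 38.3 ± 7.96% in naive B. Next in number, 4 members with Srebf1 as the nearest start lay within 197 bp of an exon of Rai1 (chr11:60003186-60003382). RAI1 is a nuclear protein, and SREBP1, the product of Srebf1, switches on lipid synthesis genes. These 4 averaged 39.4 ± 6.87% in plasmablasts, 39.7 ± 10.3% in plasma cells and 16.1 ± 6.36% in naive B. Within 600 bp of their centre, 6 tested CpGs outside the set averaged 43.7 ± 6.4% in plasmablasts, 41.7 ± 6.57% in plasma cells and 37.2 ± 3.41% in naive B. The other Srebf1 member lay apart in an intron of Srebf1 itself and read 65.2, 54.2 and 69.4% in plasmablasts, 51.2, 87.5 and 44% in plasma cells, and 37.5, 30 and 54.5% in naive B; naive B 3 overlapped both LPS stages there.

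**Figure D5:**
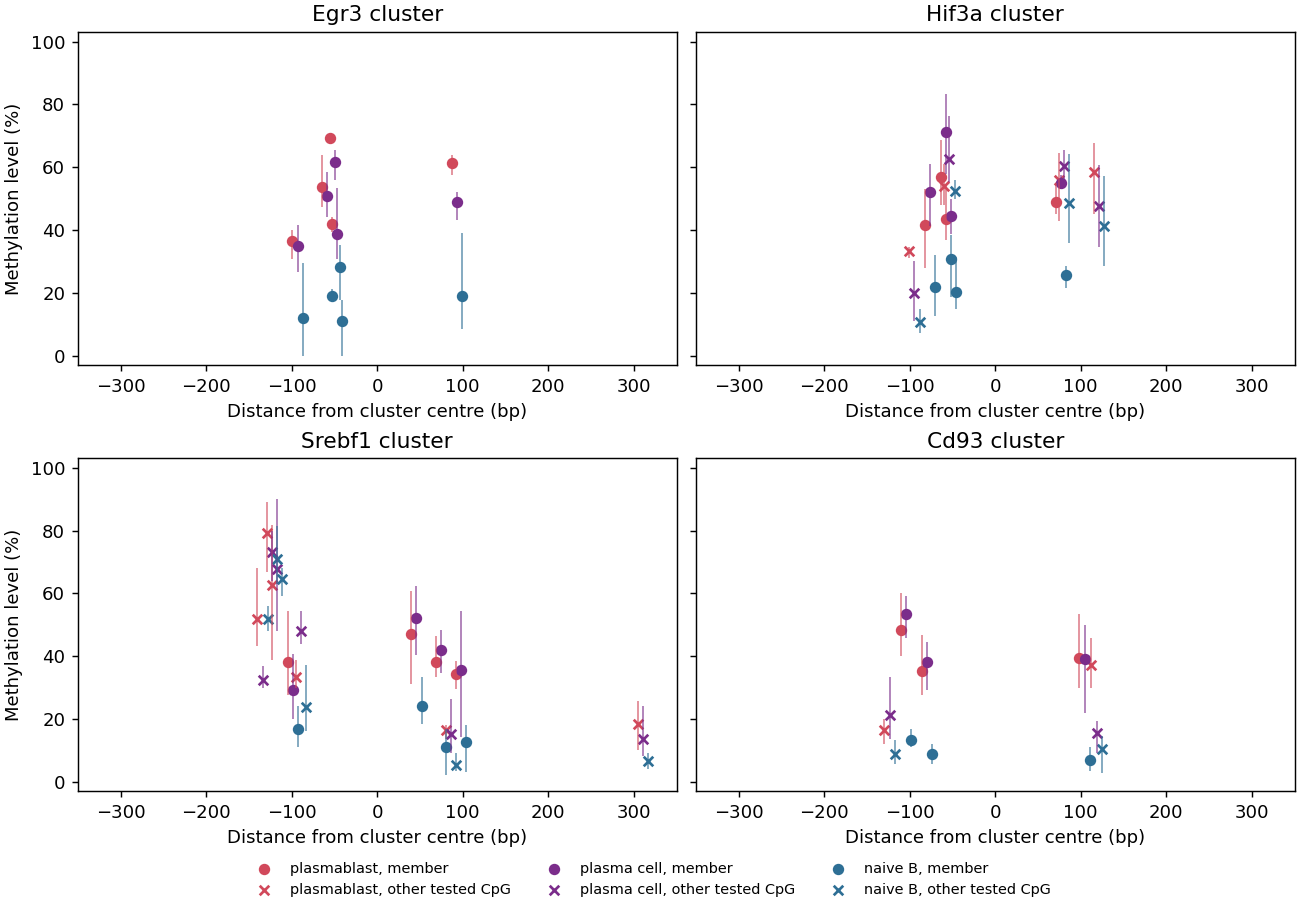
Methylation level (%, vertical axis) of tested CpGs by distance in bp from the centre of the stretches at Egr3, Hif3a, Srebf1 and Cd93; symbols are means of 3 libraries, bars run from the lowest to the highest library, circles are members and crosses other tested CpGs, and groups are set 6 bp apart for sight. Egr3 has no other tested CpG within 600 bp, and at the other 3 stretches crosses lie beside the circles.

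Anks1, encoding an adaptor protein with ankyrin repeats, held 4 members spread over its promoter, 5′ untranslated exon and an intron. They averaged 54.8 ± 2.62% in plasmablasts, 52 ± 4.44% in plasma cells and 21.5 ± 1.73% in naive B. The exonic one, 138 bp downstream of the start at chr17:28144669, read 45, 50.9 and 51.5% in plasmablasts, 60.4, 50 and 41.5% in plasma cells, and 5.41, 17.5 and 6.45% in naive B. All LPS libraries were above all naive B libraries at it. The 93 other Anks1 CpGs averaged 62 ± 1.32% in plasmablasts, 59.5 ± 1.13% in plasma cells and 66.7 ± 0.817% in naive B.

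At Plscr3, of the phospholipid scramblase family, 3 members lay within 22 bp of the 3′ untranslated region (chr11:69664578-69664599), which overlaps Tnk1, a tyrosine kinase gene. They averaged 39.1 ± 0.449% in plasmablasts, 56.8 ± 5.64% in plasma cells and 15.5 ± 3.38% in naive B. The largest gain of any member in plasma cells was there, at chr11:69664596, which read 53.6, 46.3 and 56.4% in plasmablasts, 65.5, 71.4 and 72.1% in plasma cells, and 22.4, 10.4 and 20% in naive B. Plasma cells stood highest and naive B lowest, with no overlap between the 3 groups. The difference of the 2 LPS stages was not called at any of the 3 CpGs. The 21 other CpGs with Plscr3 as the nearest start averaged 17.4 ± 3.42% in plasmablasts, 17.2 ± 0.407% in plasma cells and 17 ± 1.74% in naive B. The closer surroundings stood higher: 6 tested CpGs outside the set within 1000 bp of the stretch had mean pooled levels of 51.9% in plasmablasts, 57.3% in plasma cells and 53.5% in naive B.

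The largest smaller gain of all members belonged to an intronic CpG of Wbp1l, which encodes a transmembrane adaptor, at chr19:46694789. It read 76.5, 74.2 and 83.3% in plasmablasts, 83.7, 70 and 80.8% in plasma cells, and 45, 21.6 and 32.4% in naive B. It differed from naive B by 44.9 points in plasmablasts and 45.9 points in plasma cells, with no overlap. A second member 12 bp away was lower in every group and read 20.6, 28.1 and 36.1% in plasmablasts, 23.3, 36.7 and 19.2% in plasma cells, and 4.88, 10.8 and 0% in naive B. A lone member 76906 bp upstream of Ndrg1, a gene responsive to stress and hypoxia, read 50, 54.8 and 68.8% in plasmablasts, 55.4, 61 and 53.2% in plasma cells, and 14.6, 17.9 and 44.4% in naive B. Naive B 3 stood well above naive B 1 and 2, and below all LPS libraries.

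Other genes with 3 members were Atxn7l1, Mtmr12, 4930592I03Rik and Jade1. The Atxn7l1 members, in an intron, averaged 62.2 ± 4.5% in plasmablasts, 64.9 ± 15.1% in plasma cells and 30.3 ± 7.15% in naive B, and plasma cell 3 was lowest of the LPS libraries with 48.1%. MTMR12 is an inactive partner of lipid phosphatases, and its members averaged 50.7 ± 3.48% in plasmablasts, 52 ± 6.48% in plasma cells and 27.3 ± 6.75% in naive B. Those nearest to 4930592I03Rik, in an intron of Zfp516, averaged 56.3 ± 7.58% in plasmablasts, 65.1 ± 5% in plasma cells and 34.2 ± 8.57% in naive B. Jade1 encodes a scaffold of a histone acetyltransferase complex, and its exonic members averaged 50.7 ± 7.29% in plasmablasts, 58 ± 3.79% in plasma cells and 33.1 ± 3.64% in naive B. In these 4 means no LPS library overlapped naive B. A stretch of 3 members without a gene symbol (chr4:95020527-95020542) averaged 37.5 ± 7.22% in plasmablasts, 38.9 ± 4.73% in plasma cells and 10.8 ± 0.953% in naive B.

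With 2 promoter members each, like Anks1, stood Tpcn1, which encodes an endolysosomal cation channel, Tbxa2r, the thromboxane receptor gene, and 4930581F22Rik. The Tpcn1 members, 79 and 107 bp upstream of the start, averaged 53.9 ± 6.07% in plasmablasts, 53.7 ± 1.47% in plasma cells and 27.4 ± 6.84% in naive B. Those of Tbxa2r averaged 37.2 ± 8.69% in plasmablasts, 34.1 ± 2.54% in plasma cells and 16.2 ± 4.41% in naive B, and those of 4930581F22Rik, inside St3gal4, a sialyltransferase gene, 37 ± 8.45% in plasmablasts, 34.3 ± 4.53% in plasma cells and 18.5 ± 5.94% in naive B. The single promoter member of Ppef2, a phosphatase gene known from sensory neurons, averaged 48.2 ± 6.19% in plasmablasts, 58.1 ± 5.87% in plasma cells and 25.1 ± 5.92% in naive B. LPS and naive B libraries did not overlap in any of these 4 means.

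Of 960 tested CpGs at 30 mature B cell identity genes, 2 were members (0.208%, against 0.0668% of all tested CpGs), both nearest to Ccr7, the chemokine receptor that guides lymphocytes to T cell zones. One, in an intron of Ccr7 at chr11:99009565, read 34.3, 42.5 and 27% in plasmablasts, 37.3, 36.1 and 36.2% in plasma cells, and 8.33, 21.7 and 16.9% in naive B, with no overlap. The other, between genes at chr11:98995417, read 58.3, 57.1 and 57.6% in plasmablasts, 60, 64.5 and 59.5% in plasma cells, and 27.3, 29.2 and 73.1% in naive B, and naive B 3 lay above all LPS libraries there. Over the identity list 2 CpGs were called higher and 195 lower in plasmablasts, and 4 higher and 345 lower in plasma cells; the list's median differences were -7.05 points in plasmablasts and -10.5 points in plasma cells. Over all tested CpGs 399 were called higher and 56238 lower in plasmablasts, and 194 higher and 107180 lower in plasma cells.

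Of 421 CpGs at the DNA methylation machinery 1 (0.238%) was a member, in an intron of Dnmt3b, a de novo methyltransferase gene, at chr2:153476747. It read 50, 82.8 and 87.5% in plasmablasts, 69, 68.8 and 72.7% in plasma cells, and 46.7, 58.7 and 43.5% in naive B. Plasmablast 1 overlapped naive B, and plasma cells lay above it. On this list no CpG was called higher in either stage, and 71 were called lower in plasmablasts and 116 in plasma cells. Over all tested CpGs 0.112% were called higher and 15.8% lower in plasmablasts, and 0.0544% higher and 30.1% lower in plasma cells. The list was not tested against these shares.

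The 544 CpGs of the plasma cell program (Prdm1, Irf4, Xbp1 and others) held no member, and none was called higher, while 123 were called lower in plasmablasts and 206 in plasma cells. Shares called over all tested CpGs were 0.112% higher and 15.8% lower in plasmablasts, and 0.0544% higher and 30.1% lower in plasma cells. At such shares few or no higher calls would fall on a list of this size, and the lists were not tested against them. The TLR4 and NF-kB response list (471 CpGs, 1 called higher in plasma cells), 2748 CpGs of Hox and Polycomb developmental genes (2 higher in plasmablasts) and 645 of imprinted genes (0 higher) held no member either. Marker genes of the T cell, NK cell, myeloid and erythroid or stem cell lists held none among 585, 172, 172 and 598 tested CpGs. With 0.0668% of all tested CpGs in the set, lists of these sizes would hold hardly any, and nothing is read from their absence. Mean levels of the T cell, NK cell, myeloid and erythroid or stem cell lists were lower in every LPS library than in every naive B library. For T cell genes they were 60.5 to 61.6% in plasmablasts and 54.0 to 58.2% in plasma cells against 67.8 to 70.1% in naive B. The part of other cell types in the members' values was not tested. Pbx2, a homeobox cofactor gene examined for an earlier sign of a gain, had no member among 16 CpGs and averaged 43.7 ± 2.28% in plasmablasts, 36.9 ± 1.14% in plasma cells and 37.8 ± 4.52% in naive B.

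Members were also seen near other genes of lymphocyte signalling, which were picked after their values were seen and carry no test. Transcription factors and cofactors, 12 genes with 25 members, included Irf1, the interferon regulatory factor, whose nearest member lay 16358 bp from its start in an intron of Gm12216 and read 83.3, 63.9 and 45.8% in plasmablasts, 65.2, 46.2 and 38.5% in plasma cells, and 26.7, 27.5 and 16.7% in naive B. The intronic member of Etv6, an ETS repressor, read 78.6, 74.4 and 67.9% in plasmablasts, 73.3, 69.6 and 77.4% in plasma cells, and 43.2, 52.6 and 50% in naive B. One 95184 bp upstream of Id2, an inhibitor of E proteins, read 39, 46.7 and 35.2% in plasmablasts, 38.2, 36.2 and 34.3% in plasma cells, and 13.3, 19.1 and 29.2% in naive B. At these 3 CpGs no LPS library overlapped naive B.

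Cytokine signalling was represented by 6 genes with 7 members, with median gains of 18.9 points in both stages. The CpG 29808 bp upstream of Il6st, the gene of the gp130 receptor chain, read 93.1, 94.1 and 85.4% in plasmablasts, 96.9, 100 and 95.8% in plasma cells, and 66, 50 and 71.4% in naive B and was among the most methylated members. Cish and Socs2, feedback inhibitors of cytokine receptors, held 2 and 1. Antigen receptor signalling was represented by 7 genes with 7 members, among them Itpkb, an inositol phosphate kinase gene, whose CpG read 28.3, 31.1 and 29% in plasmablasts, 35.7, 48.6 and 45.3% in plasma cells, and 10.2, 6.38 and 0% in naive B. The smaller gain ran between 15.9 and 28.6 points at the cytokine genes and between 15.2 and 32.2 points at the antigen receptor genes.

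Some members rested on naive B libraries that disagreed. At 2 neighbouring CpGs nearest to 1700112E06Rik, in an intron of Lrmda, the first read 47.4, 88.6 and 84.8% in plasmablasts, 78.1, 53.3 and 78.3% in plasma cells, and 85.7, 37.5 and 17.4% in naive B. Naive B 1 there was as high as the LPS libraries. An intronic Epg5 member read 38.9, 51.7 and 51.6% in plasmablasts, 22.9, 21.3 and 33.3% in plasma cells, and 1.52, 25 and 35.7% in naive B, where plasma cells overlapped naive B. The dispersion in the test was nearly the same for all members (1.27 to 1.34), so the spread at a single CpG hardly entered its p-value.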

How the data were processed

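Per the submitters' processing notes, reads were aligned with Bismark and Bowtie2 to mm9; no versions are stated. Deposited by the authors were counts of methylated and unmethylated reads per CpG and library, with strands summed per the file headers, and the level as a fraction, which equalled the count ratio. Libraries held 16037172 to 29948088 reads over CpGs. Intervals from PCR reads would cover counting error only.

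CpGs with at least 10 reads in all 9 libraries were tested with a quasi-binomial logistic model, 1 level per group, in Python 3.11.15. Dispersion was moderated with limma 3.58.1 (prior from 119547 CpGs fitted between 5 and 95% in every group) and kept at 1 or more; contrasts were adjusted by Benjamini-Hochberg over 356320 CpGs and a call needed an adjusted p under 0.01 and 15 points. Group means are of library levels, and differences at single CpGs are of pooled reads. The model was tested on simulated data. The members and lists were chosen with earlier results of these data known. Named genes were those with most members, most promoter members or largest smaller gains, the largest stretches, up to 3 per list, and Pbx2. Nearest genes and classes are the authors' annotation. Sequences are from RefSeq; no mm9 genome was used here. The authors' lists of differential CpGs used a false discovery rate of 0.01 per the file headers. Alternatives were other read minimums, thresholds, levels, limma on log2((methylated + 1)/(unmethylated + 1)), background subtraction, a replicate block and leaving out each library. Individual values of a few members are not reported here; the counts and medians include them.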

Additional observations from a re-analysis of the deposited data

How the results depend on the processing

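The number of members followed the limits: 421 with at least 5 reads, 77 with 20 reads, 686 at 10 points and 108 at 20 points. It was 213 to 379 when 1 library was left out (379 without naive B replicate 2, 362 without naive B replicate 3, keeping 206 and 219 of the 238). The number of tested CpGs moved too: with 20 reads 113507 remained, 31.9% of all tested CpGs, and 32.4% of the members. With 5 reads, or without 1 library, more CpGs could be tested, and the shares are not reported here. When 1 library was left out, 6.10 to 9.39% of the set lay in promoters and its naive B level was 25.5 to 27.4%; with 20 reads these were 7.79% and 25.02%, and at 20 points 4.63% and 25.6%. Without 1 library, 50 to 114 members were called higher in plasmablasts (50 without naive B replicate 1, 72 without naive B replicate 2, 54 without plasmablast replicate 2, 63 without plasmablast replicate 3) and 79 to 122 in plasma cells (79 without naive B replicate 1); over all CpGs these calls numbered 109 to 465 and 121 to 179. Between plasma cells and plasmablasts, 0 to 4 CpGs were then higher and 384 to 2940 lower, with 0 members either way. At an adjusted p of 0.05 the calls were 963 in plasmablasts (177 members), 353 in plasma cells (193 members), and 20 higher and 6843 lower in plasma cells than plasmablasts. With at least 20 reads they were 142 (46 members), 73 (45 members), 0 and 580, where fewer CpGs were tested. Limma on log2 ratios gave 221 (48 members), 109 (72 members), 0 and 0; the cause was not tested. Library numbers did not pair samples (9 same-numbered correlations of deviations from -0.0287 to 0.0302, 3 of 9 libraries correlating best with their own number). With the replicate block, 2 CpGs were called higher and 1386 lower in plasma cells than plasmablasts, and 290 and 174 higher than naive B (99 and 119 members). Unscored neighbours differed from naive B by 3.78 to 5.93 points in plasmablasts and 0.443 to 3.16 points in plasma cells without 1 library; by pooled reads the plasma cell difference reversed to -2.63 points. Tested neighbours differed by -1.30 to 0.724 points in plasmablasts without 1 library (0.640 without plasmablast replicate 1, 0.724 without naive B replicate 2) and by 1.12 points by pooled reads, both reversed in sign, and by -4.94 to -2.70 points in plasma cells. The cause was not tested, and groups of this size cannot reach a p under 0.05. For 36 gains of named genes, pooled reads and leaving out each library, chosen after seeing the data, kept the direction. No gain moved by more than the square root of the summed variances of both groups, a wide limit. The choice of members by these libraries largely fixes this, and a library of the other LPS stage cannot change a gain. Without 1 library, gains fell as low as 10.9 points in plasmablasts and 13.7 in plasma cells at Ccr7. They fell to 12.4 points in plasma cells at 4930581F22Rik and 13.96 in plasmablasts at Jade1. At library medians of 24 to 38 reads, 82 members were called in neither comparison, which shows no absence of a difference at them.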
